A study of Mus musculus with 10 samples.

Results

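The 10 genes described here, which code for transcriptional regulators of the endocrine pancreas that act after *Neurog3*, were followed from the ductal trunk to the hormone cells of the embryonic mouse pancreas. The set was put together as regulators shared by all endocrine lineages, and their levels go against that for *Neurod2*, which had at most 4 UMIs in the Fev-late or alpha cells of any library. The genes were chosen by symbol and are *Insm1*, *Nkx2-2*, *Neurod2*, *Neurod1*, *Rfx6*, *Myt1*, *St18*, *Runx1t1*, *Pax6* and *Isl1*, which is 10 of the 27716 genes that all matrices list. Single-cell RNA sequencing gave 8 independent libraries, each a pool of pancreata. Of these, 7 came from Swiss Webster embryos, 4 made with the version 1 (v1) kit from all live cells (E12.5, E14.5 in 2 batches from separate litters, and E17.5) and 3 made with the version 2 (v2) kit from live CD140a-negative cells (E12.5, E14.5 and E17.5). The eighth was a v2 library of E14.5 embryos carrying *Fev-Cre* and the ROSA26mTmG reporter on a C57BL/6J background. In these embryos, cells that have expressed Cre from the *Fev* promoter, and their descendants, switch from TdTomato to eGFP, and all sorted eGFP+ cells were loaded together with part of the TdTomato+ cells. Each stage was collected with its own litters and its own dissociation time, so stage cannot be told apart from litter and handling, and the Fev-Cre library differs from the others in strain and in its sort.

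In the developing pancreas, endocrine cells arise from the bipotent trunk epithelium. Trunk cells that switch on the bHLH factor *Neurog3* leave the trunk, pass through a stage that expresses *Fev*, and become alpha, beta, delta, epsilon or PP cells, which make glucagon, insulin, somatostatin, ghrelin and pancreatic polypeptide. *Neurog3* itself is on only briefly. The regulators followed here act after it: *Neurod1* and *Neurod2* are bHLH factors that bind E-boxes, *Insm1*, *Myt1* and *St18* are zinc-finger proteins, *Rfx6* is a winged-helix factor, *Nkx2-2*, *Pax6* and *Isl1* carry homeodomains, and *Runx1t1* is a corepressor.

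Classes of cells were set by marker gates in which no member was used. Trunk cells carried *Sox9* or *Spp1* and no UMI of *Neurog3*, *Fev*, *Chga* or *Chgb*. Neurog3-high cells had 2 or more *Neurog3* UMIs and no *Fev*, Neurog3/Fev cells had both, Fev-early cells had 2 or more *Fev* UMIs with *Pax4* and at most 1 of *Neurog3*, and Fev-late cells had *Fev* and *Chgb* without *Neurog3* or *Pax4*. Hormone cells were gated on a single hormone, with no limit on *Neurog3* or *Fev*. The classes held 7404 trunk, 2317 Neurog3-high, 605 Neurog3/Fev, 478 Fev-early, 862 Fev-late, 1510 alpha, 1593 beta, 198 delta and 218 epsilon cells, and a class entered a comparison where a library held 10 or more of its cells. Trunk, Neurog3-high, Fev-late and alpha cells were compared in all 8 libraries, Neurog3/Fev in 7, Fev-early, beta and epsilon in 6 and delta in 4. Of marker genes outside the gates, *Btbd17* and *Hes6* were higher in Neurog3-high cells in 8 of 8 libraries, *Irx2* in alpha cells in 8 of 8, *Iapp* and *Nkx6-1* in beta cells in 6 of 6, *Irs4* in epsilon cells in 6 of 6 and *Hhex* in delta cells in 4 of 4. In both *Fev* classes *Cldn4* was higher in every library (6 of 6 for Fev-early and 8 of 8 for Fev-late), but *Vim* was higher in 4 of 6 and in 5 of 8. The trunk label was also looser, with *Hes1* higher in 8 of 8 libraries and *Krt19*, a ductal keratin, in 6 of 8.

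Depth differed between libraries. After barcodes with fewer than 200 genes were left out there were 57982 cells, with 2309 to 13182 barcodes in a run, a median of 2952 to 11783 UMIs per cell and 7992482 to 127084235 UMIs in all. Haemoglobin took between 0.0128% and 60.9% of the UMIs, so haemoglobin and hormone genes were left out of the totals. Levels are given as CPM, the UMIs of a gene in the summed cells of a class and library per 1000000 remaining UMIs. Because the 3′ end is counted once per molecule, the values do not scale with gene length. Between 0.433% and 1.79% of barcodes were shared by a pair of libraries.

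The promoters of the members were searched for the E-box CAGATG on both strands, a form bound by bHLH factors of this family. RefSeq windows on GRCm38.p6 held the 250 bases before the start of 7 of the 10 members, in 10 windows, and *Insm1*, *St18* and *Runx1t1* had no window. The motif stood in 2 of those 10 windows, against 14.4% of 32851 windows of the same length. A share of 2 in 10 is near that background. The windows with the motif, those of *Neurod2* and *Nkx2-2*, are shown as examples of where it lies and are printed from 5′ to 3′ on the strand of the gene with the motif in capitals. A match is a description of these letters and not a binding site. The windows are chr11:98329646-98329895 for *Neurod2* and chr2:147186403-147186652 for *Nkx2-2*, both on the minus strand. The second lies upstream of the start of the coding transcript of *Nkx2-2* and within longer noncoding transcripts of the gene (GENCODE M21). The motif begins 118 bases upstream of the start of *Neurod2* and 220 bases upstream of that of *Nkx2-2*.
Neurod2: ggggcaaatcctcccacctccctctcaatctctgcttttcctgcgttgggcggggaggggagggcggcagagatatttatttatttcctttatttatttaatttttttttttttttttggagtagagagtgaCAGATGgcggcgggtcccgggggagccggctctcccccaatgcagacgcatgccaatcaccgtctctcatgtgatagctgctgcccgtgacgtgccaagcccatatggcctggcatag
Nkx2-2: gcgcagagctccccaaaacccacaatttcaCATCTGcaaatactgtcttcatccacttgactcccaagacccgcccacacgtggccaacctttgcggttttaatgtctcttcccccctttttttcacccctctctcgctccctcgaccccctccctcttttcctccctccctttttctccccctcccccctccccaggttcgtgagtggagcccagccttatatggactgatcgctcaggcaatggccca

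The members did not come on together. For each library, onset was set as the first class in the order trunk, Neurog3-high, Neurog3/Fev, Fev-early, Fev-late, alpha, beta in which a member reached 50% of its highest CPM among these classes (delta and epsilon cells, where *Isl1* was higher still, were left out). *Insm1*, *Nkx2-2* and *Neurod2* reached it in Neurog3-high cells in 8 of 8 libraries. *Myt1* did so in Neurog3-high cells in 6 libraries and *Rfx6* in 5, and both in Neurog3/Fev cells in 2 others. *Neurod1* and *St18* reached it in Neurog3/Fev cells in 6 libraries, and *Pax6* and *Runx1t1* in 7. *Isl1* came last, in Fev-late cells in 6 libraries, in Fev-early cells in 1 and in alpha cells in 1. With *Neurog3* and *Fev* gates at 3 UMIs it did so in Fev-late cells in 2, in Fev-early cells in 2 and in alpha cells in 4. Its mean was 43.8% in Fev-early and 54.6% in Fev-late cells, on either side of the limit. The Neurog3/Fev and Fev-early classes were missing in v1 E12.5, and Fev-early in v1 E17.5. In v1 E12.5 the onset of *Neurod1*, *St18*, *Pax6*, *Runx1t1* and *Isl1* in Fev-late cells could not fall in those classes. The order is a description of levels in classes from 1 time point each and does not follow single cells through time.

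**Figure D1:**
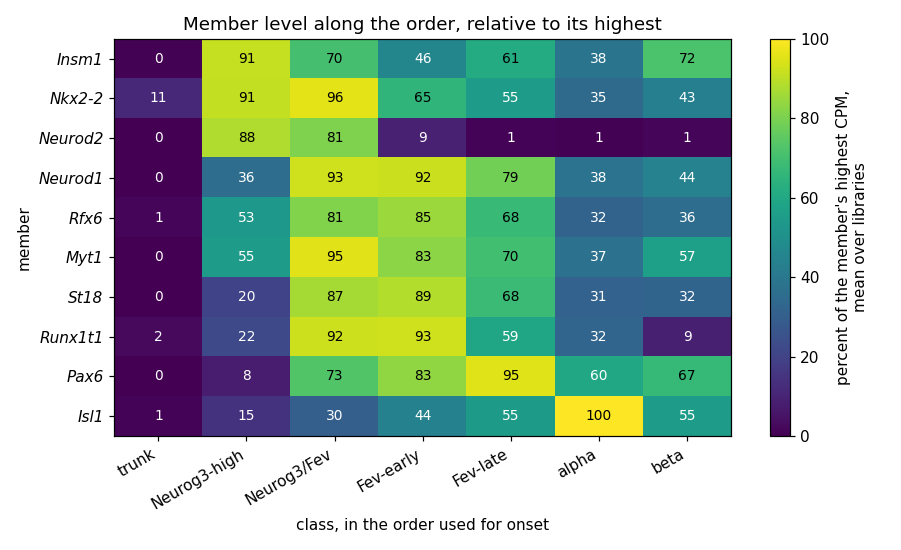
Level of each member (rows) in the classes in onset order (columns), as a percent of its highest CPM among these classes in that library, averaged over the libraries that hold the class. *Neurod2* stands at 88% in Neurog3-high cells and 9% in Fev-early cells, *Pax6* at 8% and 83%, and *Isl1* reaches 100% in alpha cells.

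The first comparison asked which members distinguish cells that have switched on *Neurog3* from the trunk. All 10 members rose in Neurog3-high cells, by at least 2-fold with an adjusted p below 0.05 in edgeR's quasi-likelihood test with library as a block. Of all 9650 genes tested, 8.48% rose by the same rule. The median log2 difference was 5.65 over the members and -0.07 over all genes. The trunk gate asked for no *Neurog3*, *Fev*, *Chga* or *Chgb* UMI, so this comparison sets committed cells against trunk cells without any endocrine marker.

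*Insm1* (chr2:146221921-146225020), whose product recruits histone-modifying corepressors, had 0 to 2.30 CPM in trunk cells (median 0.915, n = 8) and 103 to 761 CPM in Neurog3-high cells (median 195, n = 8). It was 7.68 ± 0.30 higher on the log2 scale (SE, adjusted p = 2.2e-32). *Nkx2-2* (chr2:147177546-147194243), a repressor needed for beta cell formation, was the member with a clear level in trunk cells, at 25.1 to 63.8 CPM (median 48.0). In Neurog3-high cells it stood at 179 to 574 CPM (median 388), a difference of 2.91 ± 0.15 (adjusted p = 7.4e-26). Acinar cells had a similar level, at 13.0 to 79.2 CPM (median 35.4), so it was not particular to the trunk. After thinning, 5.93% to 13.3% of trunk cells and 0% to 15.4% of acinar cells had an *Nkx2-2* UMI, against 0% to 1.25% of immune cells. In endothelial cells the share was 0% in 7 libraries and 15.4% in Fev-Cre, which is 2 of 13 cells (1.92% to 45.4%).

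*Neurod2* (chr11:98325415-98329648), a bHLH factor better known from neurons, was nearly undetected in the trunk. Only 3 UMIs were counted in all trunk cells of the 8 libraries, against 1874 in Neurog3-high cells, a ratio of 2458 (95% interval 840 to 11932, counting error only). Its level in Neurog3-high cells was the least even of the early members, at 39.2 CPM in v1 E12.5, 170 and 471 in the v1 E14.5 batches, 373 in v1 E17.5, 10.0 in v2 E12.5, 80.4 in v2 E14.5, 243 in v2 E17.5 and 147 in Fev-Cre. The E12.5 libraries were the lowest of either kit.

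*Neurod1* (chr2:79452521-79456751), which carries the program on in all islet lineages, went from 0 to 2.56 CPM in the trunk (median 0.805) to 79.7 to 480 CPM in Neurog3-high cells (median 340), a rise of 8.00 ± 0.26 (adjusted p = 2.4e-36). *Myt1* (chr2:181763332-181827797) rose by 7.33 ± 0.35 from a trunk median of 0.0381 CPM to a median of 40.0, and *Rfx6* (chr10:51677756-51730432), mutated in a neonatal diabetes syndrome, by 5.62 ± 0.29 from 0.791 to 48.1. *St18* (chr1:6487231-6860940), a relative of *Myt1*, rose by 5.68 ± 0.39 from 0.0571 to 26.2 CPM. In Neurog3-high cells, *Rfx6*, *Myt1* and *St18* together stayed below *Nkx2-2* in 8 of 8 libraries.

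*Pax6*, *Isl1* and *Runx1t1* had also risen by this stage, but from far below their later levels. *Pax6* (chr2:105668900-105697364), which activates hormone genes, had 17.9 to 94.0 CPM in Neurog3-high cells (median 39.9) against 0 to 5.30 in the trunk, a difference of 5.09 ± 0.31. *Isl1* (chr13:116298281-116309689), a LIM homeodomain factor needed for islet cell maturation, had 56.4 to 264 CPM (median 131) against 2.15 to 18.4, a difference of 3.75 ± 0.31. *Runx1t1* (chr4:13743436-13893649) had 23.6 to 214 CPM (median 65.8) against 0.761 to 16.0, a difference of 3.09 ± 0.39.

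**Figure D2:**
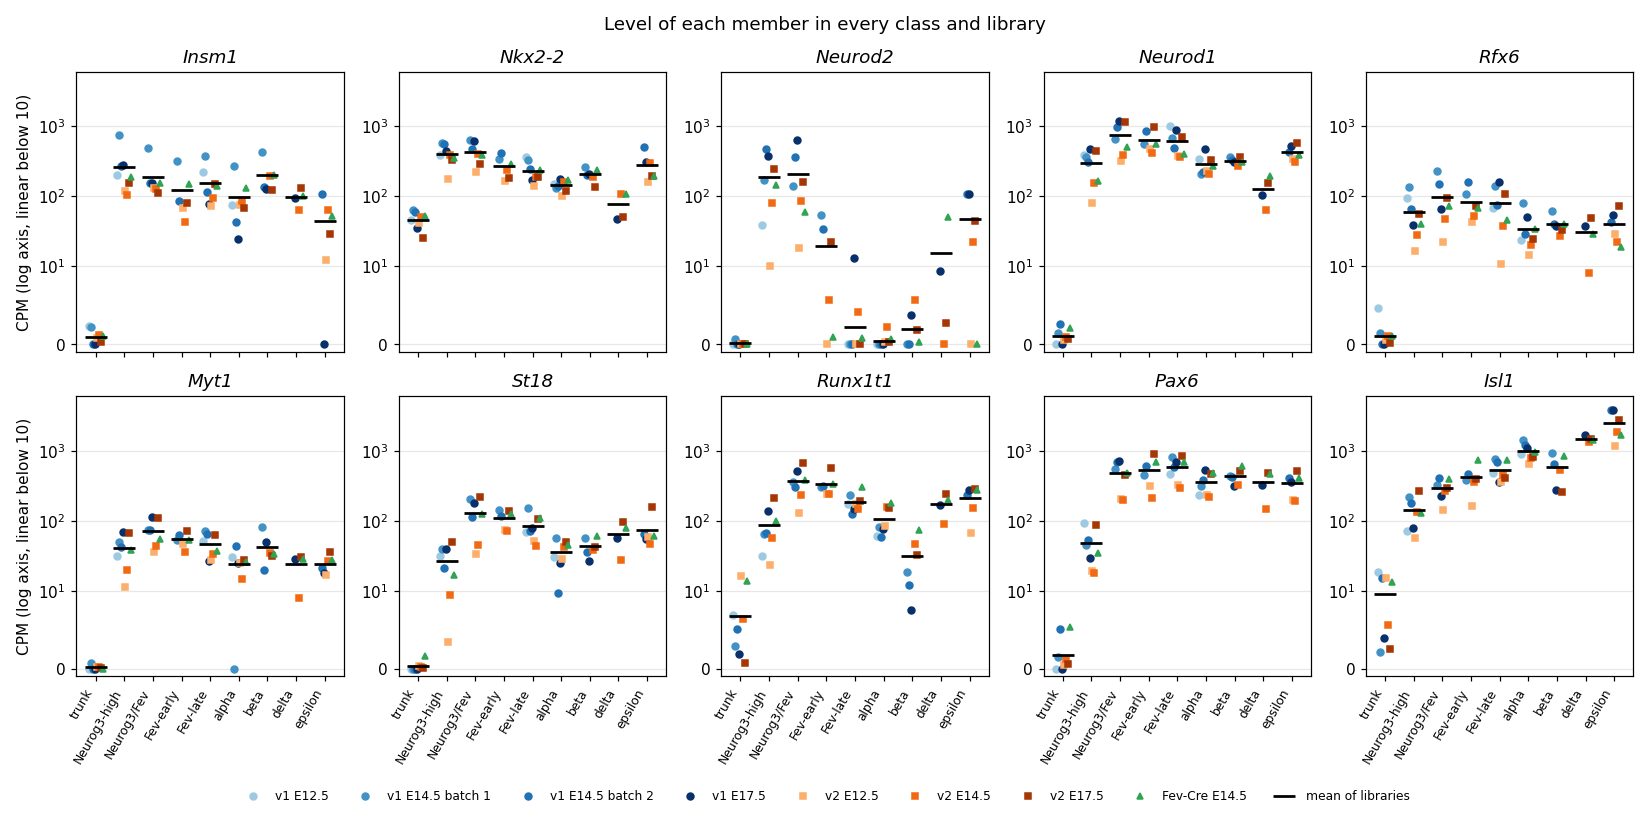
CPM of each member (one panel each, log axis that is linear below 10) in 9 classes, with 1 point per library (circles v1, squares v2, triangles Fev-Cre) and the mean as a bar. *Neurod2* is at or near 0 from Fev-late to beta cells, *Runx1t1* has its lowest endocrine levels in beta cells, and *Isl1* climbs to its highest in delta and epsilon cells.

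Other genes of the program are set beside these rises as a description. Their lists, here and in later steps, were chosen with earlier results of these data known. The trunk gate also left out cells with *Chga* or *Chgb*. The directions of *Neurog3*-stage and secretory granule genes were thus partly fixed in advance. Of 26 secretory granule genes tested besides the gate gene *Chga*, 20 rose in Neurog3-high cells and none fell, among them *Pcsk1* (5.70 on the log2 scale), a prohormone convertase, and *Syt13* (5.42). Of 19 genes of the *Neurog3* stage, 14 rose, such as *Gadd45a* (5.72) and the Notch modifier *Mfng* (6.27), and 3 fell, the Notch genes *Hes1* (-1.24), *Jag1* (-1.22) and *Notch2* (-1.20). Of 24 cofactors, 4 rose and 3 fell, and of all genes 4.92% fell. Those that rose included *Rcor2* (2.75) and *Kdm1a* (1.24), parts of a corepressor complex that INSM1 recruits, and *Ldb1* (1.15), the partner of LIM proteins such as ISL1. Those that fell were *Rest* (-1.30), a repressor of neuronal and endocrine genes, and the bHLH inhibitors *Id2* (-1.52) and *Id3* (-1.68). Among 30 relatives of the members outside the gates only 5 had counts enough to test, and 4 of those rose, *Lhx1* (8.17), *Cbfa2t3* (5.46), *Cbfa2t2* (1.93) and *Rfx3* (1.41). *Cbfa2t2* and *Cbfa2t3* belong to the family of *Runx1t1*.

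Neurog3-high cells were then divided by whether UMIs of the trunk genes were detected, a comparison that was added after the data had been seen. In 7 libraries both sets could be summed, 1461 cells with 2 or more UMIs of *Sox9* and *Spp1* and 525 cells with none. The cells with trunk genes were the deeper ones in 7 of 7 libraries, with median totals of 3253 to 10043 against 2770.5 to 7465.5 UMIs, and they had less *Neurog3* in 7 of 7. Barcodes that hold a trunk cell and a *Neurog3* cell together would fall in the first set and were not called, and the part of such barcodes and of depth in the differences that follow was not tested.

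The members were detected in the cells with trunk genes too. All 10 were called higher in those cells than in trunk cells, where 6.18% of 7423 genes rose, but they had risen unequally. *Insm1* was 7.38 ± 0.24 higher (log2) and *Nkx2-2* 2.50 ± 0.15, in 7 of 7 libraries. *Isl1* was higher in 5 of 7 libraries and at 0 CPM in both v1 E14.5 batches, and *Runx1t1* was higher in 6 of 7. *St18* and *Myt1* were higher in 5 of 7.

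In the cells without trunk genes, 9 of the 10 members were called higher than in the cells with them, against 5.13% of all genes. *Neurod1* went from 17.4 to 254 CPM with trunk genes to 274 to 1189 without, with no overlap between the sets, a difference of 2.53 ± 0.21 (adjusted p = 6.8e-10). *Pax6* differed by 2.25 ± 0.30, *Isl1* by 2.21 ± 0.41, *St18* by 2.18 ± 0.33, *Myt1* by 2.12 ± 0.23, *Runx1t1* by 1.94 ± 0.50, *Neurod2* by 1.93 ± 0.19 and *Rfx6* by 1.67 ± 0.25, each in 7 of 7 libraries. *Nkx2-2* differed by 1.03 ± 0.15 in 6 of 7 libraries, close to the 2-fold limit. *Insm1* differed least, by 0.85 ± 0.16 (adjusted p = 1.1e-04) and in 6 of 7 libraries, which is under 2-fold. With the sets as separate classes, *Insm1* reached 50% of its highest CPM in cells with trunk genes in 4 libraries and *Nkx2-2* in 2, and the other 8 members did so in none. In this division *Neurod1* reached it in Neurog3-high cells without trunk genes in 8 of 8 libraries and *Runx1t1* in 4 of 8, so their place among the Neurog3/Fev cells given above depends on taking all Neurog3-high cells as 1 class.

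**Figure D3:**
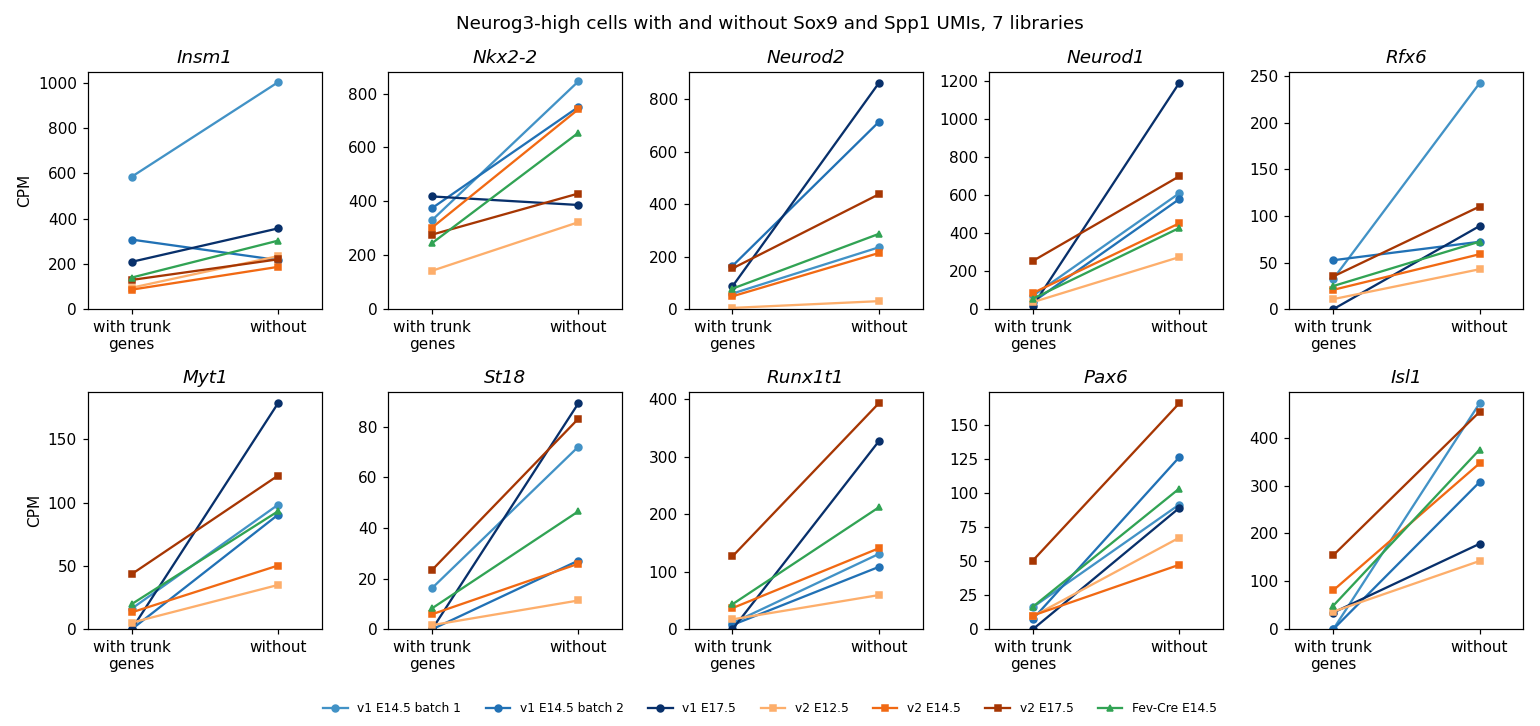
CPM of each member in Neurog3-high cells with 2 or more *Sox9* and *Spp1* UMIs (left) and with none (right), each line a library that held both (n = 7). *Neurod1* rises in every library from at most 254 to at least 274 CPM, while *Insm1* falls in v1 E14.5 batch 2 and *Nkx2-2* in v1 E17.5.

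The next step compared Neurog3/Fev cells with Neurog3-high cells, and asked what accompanies the first *Fev* transcripts. Of the members, 4 rose (4.32% of all genes did) and none fell. *Pax6* had the largest rise, from 17.9 to 86.2 CPM in the Neurog3-high cells of the 7 libraries compared to 715 in v1 E17.5, 557 and 697 in v1 E14.5 batches 1 and 2, 206 in v2 E12.5, 200 in v2 E14.5, 450 in v2 E17.5 and 486 in Fev-Cre. The classes did not overlap, and the difference was 3.21 ± 0.21 (adjusted p = 2.1e-19). After thinning, 3.85% to 13.2% of Neurog3-high cells had a *Pax6* UMI and 46.3% to 77.0% of Neurog3/Fev cells, against at most 1.79% of immune cells.

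Over the same 7 libraries, *St18* rose from a median of 21.1 to 126 CPM, by 2.32 ± 0.26 (adjusted p = 1.4e-10), *Runx1t1* from 66.7 to 360, by 1.88 ± 0.34 (adjusted p = 3.1e-05), and *Neurod1* from 313 to 663, by 1.27 ± 0.16 (adjusted p = 1.0e-08), each in 7 of 7 libraries. *Isl1* (0.82 ± 0.27, adjusted p = 0.028), *Myt1* (0.75 ± 0.22, adjusted p = 0.011) and *Rfx6* (0.61 ± 0.22, adjusted p = 0.047) were higher in 7 of 7 libraries as well, but by less than 2-fold. The early members did not pass the test: *Insm1* was higher in 2 of 7 libraries, *Neurod2* in 3 and *Nkx2-2* in 5.

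Part of this step lay within the Neurog3-high cells. Compared with the Neurog3-high cells without trunk genes, Neurog3/Fev cells had 2 members called higher, as were 3.84% of genes, and 1 called lower, as were 2.13%. *Pax6* was 1.93 ± 0.24 higher (adjusted p = 1.8e-06) with no overlap, *St18* was 1.27 ± 0.26 higher (adjusted p = 0.0011), and *Neurod2* was already 1.35 ± 0.20 lower (log2 difference -1.35, adjusted p = 1.5e-05), lower in 7 of 7 libraries. Without the block by library *St18* (adjusted p = 0.13) and *Neurod2* (adjusted p = 0.49) were not called. *Insm1* (-0.90 ± 0.16, lower in 7 of 7) and *Nkx2-2* (-0.64 ± 0.15, lower in 6 of 7) passed the adjusted p but differed by less than 2-fold. *Neurod1* and *Isl1* did not pass (0.21 ± 0.19, higher in 5 of 7, and -0.23 ± 0.38, higher in 4 of 7). *Runx1t1* did not pass either, with a positive difference of 0.82 to 0.99 when single libraries were left out.

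Around the members, 21 of 26 secretory granule genes rose at this step, such as *Pcsk1n* (3.04) and *Cpe* (2.57), and 7 of 19 genes of the *Neurog3* stage fell, such as *Dll1* (-1.80), the Notch ligand, and *Hes1* (-1.67). Of 21 lineage transcription factors 7 rose, such as *Mnx1* (3.30), known from beta cells, and *Irx1* (2.30), from alpha cells. Of the 24 cofactors, 1 fell, *Id1* (-1.43), and none rose. Of all genes, 1.99% fell.

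The eGFP reporter of the Fev-Cre library gave a readout of *Fev* history that the gates did not use. After thinning, 11.0% of Neurog3-high cells had an eGFP UMI (95% exact binomial interval 7.48% to 15.4%), 59.8% of Neurog3/Fev cells (52.5% to 66.8%), 91.6% of Fev-early cells (87.7% to 94.6%), 96.1% of Fev-late cells (94.1% to 97.6%), 96.7% of alpha cells (95.0% to 97.9%) and 97.5% of beta cells (95.6% to 98.7%). Trunk cells stood at 6.67% (3.24% to 11.9%), acinar cells at 4.64%, mesenchymal cells at 7.38%, immune cells at 8.75% and endothelial cells at 15.4% (2 of 13), which were taken as the background. The interval of the Neurog3-high share overlaps those of all 5 of these classes, while the eGFP level over all UMIs was 66.9 CPM in Neurog3-high cells against 21.7, 20.8, 24.2, 29.9 and 50.7 in the same order. Neurog3/Fev cells stood above them in both measures, at 943 CPM. Epsilon cells had the lowest share of the hormone classes, 83.3% of 36 cells (67.2% to 93.6%). The cells were then divided by an eGFP UMI, also after the data had been seen. In this 1 library there is no replicate, so the values that follow, over all UMIs without thinning, have counting intervals and no test.

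Among Neurog3-high cells, the 59 with eGFP had 78.7 CPM of *Pax6* (95% Poisson interval 58.4 to 104) against 20.5 (14.7 to 27.9) in the 205 without, and 252 CPM of *Isl1* (214 to 294) against 86.7 (74.1 to 101). *Neurod1* was also higher with eGFP, at 222 CPM (187 to 262) against 150 (133 to 168). *Neurod2* and *Nkx2-2* went the other way. *Neurod2* had 101 CPM (77.6 to 129) with eGFP and 162 (145 to 181) without. *Nkx2-2* had 283 CPM (243 to 328) with eGFP and 375 (348 to 403) without. Among Neurog3/Fev cells the directions were alike, 567 against 287 CPM for *Pax6*, 440 against 291 for *Isl1* and 45.6 against 93.3 for *Neurod2*. There the intervals of *Neurod1* (520 against 486 CPM) and of *Nkx2-2* (381 against 432) overlapped. *Insm1* had intervals that overlapped in both classes, at 170 against 192 CPM in Neurog3-high and 151 against 168 in Neurog3/Fev cells. Those of *Myt1*, *Rfx6*, *St18* and *Runx1t1* overlapped in both classes as well. The part of depth, and of background eGFP like that of the trunk cells, in these differences was not tested.

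Between Neurog3/Fev and Fev-early cells, *Neurod2* was the 1 member called, and it fell. It went from 139, 360, 18.2, 86.7, 160 and 59.4 CPM in v1 E14.5 batches 1 and 2, v2 E12.5, v2 E14.5, v2 E17.5 and Fev-Cre to 53.6, 34.6, 0, 5.67, 22.7 and 0.937 in the same libraries. It was lower in 6 of 6, by -3.98 ± 0.45 on the log2 scale (adjusted p = 2.4e-09), where 0.611% of all genes fell. The Fev-early sums rest on 0 to 6 *Neurod2* UMIs per library. In Fev-late cells *Neurod2* had at most 4 UMIs in any library, while the medians of the other 9 members ran from 44.3 CPM (*Myt1*) to 631 CPM (*Pax6*).

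*Nkx2-2* and *Insm1* were lower in Fev-early than in Neurog3/Fev cells in 6 of 6 libraries, by -0.61 ± 0.17 (adjusted p = 0.054) and -0.71 ± 0.24 (adjusted p = 0.16), which did not pass. Of 19 genes of the *Neurog3* stage, 6 fell at this step, among them *Gadd45a* (-2.21), and *Cbfa2t3* fell with them (-2.04). Of all genes, 0.611% fell. The gates ask for 2 or more *Neurog3* UMIs before this step and at most 1 after it. The direction of genes that go with *Neurog3* was thus partly fixed in advance. *Pax6*, *Neurod1*, *Rfx6*, *St18*, *Runx1t1*, *Myt1* and *Isl1* differed by 0.48 or less in size.

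Between Fev-early and Fev-late cells no member was called by edgeR or DESeq2, where 0.0725% of genes were called in either direction. Unadjusted, 2 members had a p below 0.05, *Neurod2* (-2.17 ± 0.84) and *Runx1t1* (-0.73 ± 0.36), the latter lower in 6 of 6 libraries.

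**Figure D4:**
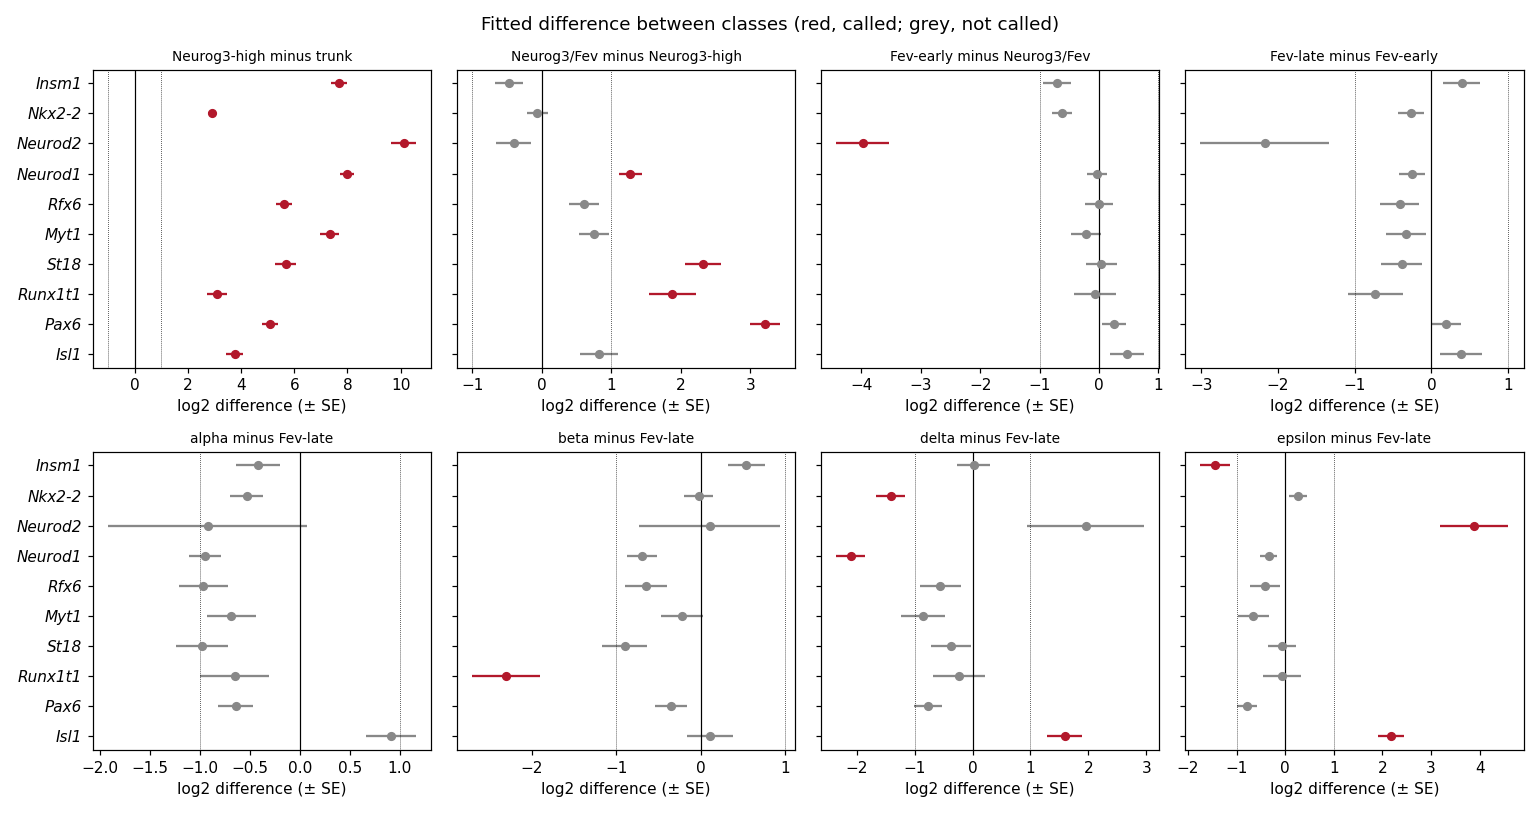
Fitted log2 difference of each member (point) with its SE (bar) for 8 comparisons of classes, red where the member was called and grey where it was not, with dotted lines at 2-fold. All 10 members are red for Neurog3-high against trunk, 4 for Neurog3/Fev against Neurog3-high, *Neurod2* alone for Fev-early against Neurog3/Fev, and none for Fev-late against Fev-early. *Neurod2* in the first panel rests on 3 trunk UMIs and its place there depends on the fit.

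How many members a cell carried followed the same course. After thinning, a trunk or acinar cell had a median of 0 of the 10 members in every library. The median was 1 to 3 in Neurog3-high cells, 3 to 5 in Neurog3/Fev cells, 3 to 4 in Fev-early cells, 2 to 4 in Fev-late cells, 2 to 3 in alpha and 2 to 4 in beta cells. At least 5 members were seen in 14.3% to 68.9% of Neurog3/Fev cells and in 0% to 28.5% of Neurog3-high cells. A count of 0 in a thinned cell is not absence, since 1 UMI is the smallest value that can be seen. Cells were thinned over all their UMIs, those of hormones among them, so hormone cells kept fewer UMIs of other genes. The part of this in the lower counts of alpha and beta cells was not tested.

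From Fev-late to alpha cells no member was called by edgeR or DESeq2 (4.79% of genes were, in either direction), although 7 had an unadjusted p below 0.05 and 6 an adjusted p below 0.05. Of these 6, *Isl1* was higher in alpha cells (0.91 ± 0.25, 8 of 8 libraries, adjusted p = 0.0086) and 5 were lower, *St18* (-0.98 ± 0.26), *Rfx6* (-0.96 ± 0.25), *Neurod1* (-0.94 ± 0.16), *Pax6* (-0.64 ± 0.18) and *Nkx2-2* (-0.53 ± 0.16). Under alternatives 0 to 3 members were called, 2 with *Neurog3* and *Fev* gates at 3 UMIs, 3 in cells below 2 times the median total and 0 to 2 without single libraries.

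From Fev-late to beta cells *Runx1t1* fell (2.99% of genes did). It had 124 to 304 CPM in Fev-late cells and, in beta cells, 18.6 and 12.04 in the v1 E14.5 batches, 7.53 in v1 E17.5, 46.9 in v2 E14.5, 32.8 in v2 E17.5 and 72.8 in Fev-Cre. The classes did not overlap, and the difference was -2.30 ± 0.40 (adjusted p = 1.3e-05). *St18* (-0.90 ± 0.27, adjusted p = 0.013) and *Neurod1* (-0.69 ± 0.17, adjusted p = 0.0026) were lower in 6 of 6 libraries by less than 2-fold. *Insm1* was higher in beta cells in 5 of 6 (0.54 ± 0.22, adjusted p = 0.095), which did not pass.

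*Runx1t1* was also the 1 member called between alpha and beta cells. It was 1.65 ± 0.39 higher in alpha cells (adjusted p = 0.0012), in 6 of 6 libraries, where 3.5% of genes were higher. With the v2 kit only, the difference was 1.56 ± 0.57 (adjusted p = 0.080) and was not called. Its alpha levels of 58.2 to 179 CPM and its beta levels of 7.53 to 72.8 overlapped between libraries but not within one. Among 21 factors of known lineage preference, 6 were higher in alpha cells and 5 lower (3.88% of genes were lower), such as *Irx1* (5.09) toward alpha and *Pdx1* (-3.002) toward beta cells. *Insm1* (-0.95 ± 0.21), *Isl1* (0.80 ± 0.27) and *Nkx2-2* (-0.50 ± 0.16) passed the adjusted p but not 2-fold, and *Insm1* was lower in alpha cells in 6 of 6 libraries.

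Delta cells, which make somatostatin, had little *Neurod1* and *Nkx2-2*. *Runx1t1* stood at 91.1 to 242 CPM in them and was not called against Fev-late cells. Its mean difference was -80.8 CPM at E14.5 and 38.8 CPM at E17.5. *Neurod1* had 104, 63.8, 157 and 193 CPM in delta cells of v1 E17.5, v2 E14.5, v2 E17.5 and Fev-Cre, below each Fev-late value of those libraries (360 to 883), a difference of -2.10 ± 0.25 (adjusted p = 2.9e-09). *Nkx2-2*, at 47.1, 109, 51.0 and 107 CPM, was -1.41 ± 0.25 lower than in Fev-late cells (adjusted p = 5.6e-05). Lower calls were made for 1.34% of genes. *Isl1* stood at 1321 to 1687 CPM in delta cells and was 1.60 ± 0.30 higher (adjusted p = 1.5e-04), as 1.59% of genes were.

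Against beta cells, the same *Isl1*, *Neurod1* and *Nkx2-2* differences held (1.49, -1.41 and -1.39), and *Runx1t1* was 2.08 ± 0.47 higher in delta cells (adjusted p = 0.0014), at 91.1 to 242 CPM. With the v2 kit only, *Isl1* (adjusted p = 0.068) and *Runx1t1* (adjusted p = 0.12) were not called. Of all genes, 2.64% were higher and 3.21% lower in delta cells. Beta and Fev-late cells here are set against the same delta sums, so the comparisons are not independent.

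Epsilon cells, the ghrelin-producing cells of the embryonic islet, had the highest *Isl1* of all classes. It was 3797 CPM in v1 E14.5 batch 2, 3799 in v1 E17.5, 1153 in v2 E12.5, 1834 in v2 E14.5, 2765 in v2 E17.5 and 1676 in Fev-Cre, a difference of 2.18 ± 0.27 from Fev-late cells (adjusted p = 6.2e-09) and of 1.27 ± 0.26 from alpha cells (adjusted p = 5.5e-04). *Insm1* was lower, at 0 to 107 CPM (median 40.3), by -1.44 ± 0.30 against Fev-late cells (adjusted p = 6.7e-04) and by -1.02 ± 0.30 against alpha cells (adjusted p = 0.021). The last call lies at the 2-fold limit and was lost with thinning, without the block and without v1 E17.5, v2 E12.5, v2 E17.5 or Fev-Cre. Against Fev-late cells 1.78% of genes were higher and 1.6% lower, and against alpha cells 1.7% and 2.3%.

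*Neurod2* was higher in epsilon cells than in Fev-late or alpha cells. It had 107 CPM (5 UMIs) in v1 E14.5 batch 2, 109 (6 UMIs) in v1 E17.5, 22.4 (11 UMIs) in v2 E14.5, 44.8 (25 UMIs) in v2 E17.5 and 0 in v2 E12.5 and Fev-Cre. Against Fev-late cells the difference was 3.89 ± 0.70 (adjusted p = 4.0e-05), and against alpha cells, where *Neurod2* had at most 4 UMIs in a library, it was 4.81 ± 0.67 (adjusted p = 2.3e-07). The libraries with no *Neurod2* UMI held 20 epsilon cells in v2 E12.5 and 36 in Fev-Cre. Other genes of the *Neurog3* stage were higher in epsilon cells too, 4 of 19 against Fev-late and 4 of 19 against alpha cells. Of all genes, 1.78% and 1.7% were. The epsilon gate set no limit on *Neurog3*, while Fev-late cells had none, and the part of this in the *Neurod2* difference was not tested.

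Hormone cells were also divided by whether a *Fev* UMI was detected. In alpha cells with no *Fev* UMI against those with one, no member of 9 tested was called by edgeR, and 3 had an unadjusted p below 0.05 (0.015% of all genes were called). In beta cells none was called either, and *Runx1t1* had the only unadjusted p below 0.05 (0.0599% of genes called). *Runx1t1* was lower in beta cells without *Fev* in 6 of 6 libraries, with 60.6 against 81.1 CPM in Fev-Cre, 28.5 against 69.9 in v2 E14.5 and 28.2 against 54.5 in v2 E17.5. The v1 libraries rest on 1 or 2 UMIs a side. The fitted difference was -0.81 ± 0.17 (adjusted p = 0.047), which is under 2-fold, and without the Fev-Cre library it was -1.02 ± 0.21 (adjusted p = 0.024) and called.

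Stage was tested within a class with the kit as a term, in the 7 Swiss Webster libraries. Of the v1 libraries, E12.5, E17.5 and E14.5 batch 2 belong to 1 batch by their labels, and E14.5 batch 1 was collected on another day and has no term of its own in the fit. In Neurog3-high cells *Neurod2* rose from E12.5 to E14.5 by 3.12 ± 0.51 (adjusted p = 0.0060), where 0.428% of 6304 genes rose. *Runx1t1* rose from E14.5 to E17.5 by 1.66 ± 0.33 (adjusted p = 0.016), with 0.698% of genes higher. With the v1 kit it had 31.3 CPM (E12.5), 64.9 and 66.7 (the E14.5 batches) and 137 (E17.5), and with the v2 kit 23.6, 56.3 and 214, so the stages stood in the same order in both. Neither call was made without the kit term (adjusted p = 0.49 and 0.16), and leaving out v2 E12.5 for the first or v2 E14.5 or v2 E17.5 for the second ended it. Without v1 E17.5 the second comparison had 6 called members. With the v1 libraries of batch 2 alone beside the v2 libraries, the differences were 3.41 ± 0.39 and 1.58 ± 0.37, and both calls were made, with 2 and 4 members called in all. The level of *Neurog3* itself differed between the Neurog3-high sums of these libraries (values below) and was not a term in the fits.

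In Fev-late, alpha and beta cells no member was called between stages by edgeR. At an unadjusted p below 0.05 there were 1 and 2 in Fev-late cells for E14.5 against E12.5 and E17.5 against E14.5, 0 and 2 in alpha cells, and 1 in beta cells for E17.5 against E14.5, with 0.698%, 1.26%, 1.23%, 0.958% and 1.08% of all genes called. DESeq2 called 1 of these, *Isl1* in beta cells, which had 932 and 654 CPM in the v1 E14.5 batches and 526 in v2 E14.5 against 279 and 259 in v1 and v2 E17.5, with no overlap. edgeR gave -1.12 ± 0.28 for it (adjusted p = 0.090).

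**Figure D5:**
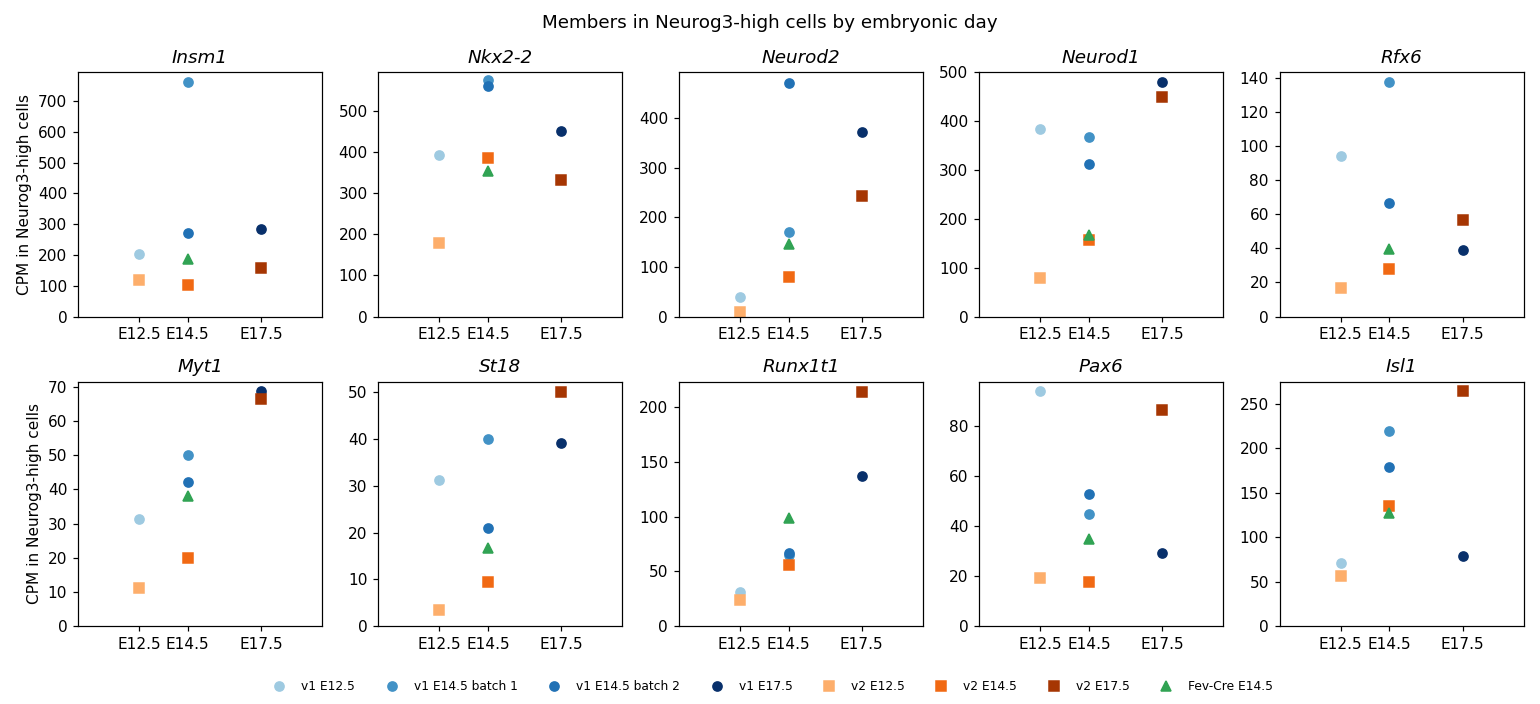
CPM of each member in Neurog3-high cells by embryonic day, 1 point per library (circles v1, squares v2, triangle Fev-Cre, which was not part of the stage test). *Neurod2* is lowest at E12.5 in both kits (39.2 and 10.0) and *Runx1t1* highest at E17.5 (137 and 214).

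Libraries of the same stage differed too. The Neurog3-high cells of v2 E12.5 had the lowest *Neurod1*, *Rfx6*, *Myt1*, *St18*, *Nkx2-2* and *Neurod2* of the 8 libraries, and those of v1 E12.5 had higher values of each, for example 384 against 79.7 CPM of *Neurod1*. The v1 and v2 libraries of a stage differ in kit, sort, depth and the *Neurog3* level of these cells, which cannot be told apart here.

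The genes most like each member in pattern were named by correlation of log2 CPM over 69 sums of a class and library, after each library's mean was removed, among 6184 genes. These values describe sums that share libraries and class composition and have no p. *Neurod1* was followed by *Vwa5b2* (r = 0.98), *Celf3* (0.97) and *Map1b* (0.96), and *Vwa5b2* also led for *Rfx6* (0.94) and *Myt1* (0.92). *Pax6* was most like *Hmgn3* (0.97), *Gnao1* and *Mapre3*, *St18* like *Tekt2* (0.96), *Prrg2* and *Snx15*, and *Isl1* like *Pnmal2* (0.95), *Lrp11* and *Gnptg*. *Nkx2-2* was most like *Tox3* (0.94), *Cyb5r3* and *Rph3al*, *Insm1* like *Camk2n1* (0.93), *Syt13* and *Cplx2*, and *Runx1t1* like *St18* (0.92), *Elavl4* and *Tcp11*. *Neurod2* stood furthest from the rest. Its closest genes were *Gdpd1* (0.87), *Hes6* and *Smarcd2*, and its r with the other members ran from 0.14 with *Pax6* to 0.69 with *Nkx2-2*, while the other pairs lay between 0.61 and 0.93.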

How the data were processed

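Embryonic mouse pancreas was profiled in 8 libraries, for which the authors deposited UMI counts (whole numbers for each gene in each barcode). Per the submitters' processing notes they were made with Cell Ranger 1.1 (v1) and 2.1 (v2) on mm10. The alignment of the Fev-Cre library with reporter sequences was used and the one without them was not, and the E17.5 v2 wells, technical replicates, were summed. Gene positions are from GENCODE M21, where *Nkx2-2* overlaps the antisense gene *Nkx2-2os*.

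Barcodes with 200 or more genes were kept (Python 3.11.15). Cells went to classes by marker gates: hormone genes at 0.5% or more of UMIs and at least 10 UMIs, acinar genes at 2% and haemoglobin at 10% at most. No doublet caller was run, and cells below 2 times the median total were an alternative. For detection, cells were thinned to 2000 (v1) or 3000 (v2) UMIs, hormone and haemoglobin UMIs included. Intervals cover counting error only.

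UMI sums per class and library (10 cells or more) were tested with edgeR 4.0.16 (quasi-likelihood, TMM, R 4.3.3) with library as a block, and Benjamini-Hochberg adjustment over all genes. Called means an adjusted p below 0.05 and 2-fold. Pools of embryos were the replicates. With library as a block, p-values measure how class differences vary between pools, with that scatter taken over all classes of a fit. In the stage fits they measure the spread between pools. Classes were paired by library because the cells of a library come from 1 suspension. Deviations of classes from the same library correlated at a median of 0.60 (0.0664 to 0.886), and those of different libraries at -0.19. Stage fits had the kit as a term. DESeq2 1.42.0, another scaling, thinning, stricter gates and leaving out each library were alternatives. The fits were tested on simulated data.

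All 10 members are named, with called genes of 5 lists (paralogs, cofactors, lineage factors, secretory genes and genes of the *Neurog3* stage, gate genes left out), and the 3 genes most correlated with each member among those with a mean of 20 CPM or more. Members and lists were chosen with earlier results of these data known.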

Additional observations from a re-analysis of the deposited data

Results flagged for a closer look

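Of 100 groups of 4 to 8 libraries, 16 held 1 library far from the others by Dixon's test, where chance gives about 1 in 20. In v1 E14.5 batch 1, *Insm1* was high in 4 classes: 761 CPM in Neurog3-high cells (next 284), 491 in Neurog3/Fev cells (next 157), 276 in alpha cells (next 132) and 435 in beta cells (next 202). Without this batch, *Insm1* was 7.59 higher in Neurog3-high than in trunk cells on the log2 scale (edgeR) and was called again. Its alpha minus beta difference, which was under 2-fold with all libraries, was just past it and called.

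In other endocrine classes, *Runx1t1* had 559 CPM in Fev-early cells of v2 E17.5 (next 336) and *St18* had 158 CPM in epsilon cells of the same library (next 64.0). *Myt1* was low in delta cells of v2 E14.5, at 9.11 CPM from 1 UMI (next 28.3). *Neurod2* had 13.2 CPM in Fev-late cells of v1 E17.5 from 1 UMI (next 4.11) and 2.25 CPM in alpha cells of v2 E14.5 from 2 UMIs (next 0.650).

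Outside the endocrine cells the values were low. In trunk cells, *Myt1* and *Neurod2* each had 0.717 CPM in v1 E14.5 batch 1 from 1 UMI, *Rfx6* had 4.59 in v1 E12.5 from 2 UMIs and *St18* had 1.59 in Fev-Cre from 3 UMIs. In acinar cells *Insm1* had 6.09 CPM in v1 E12.5 from 1 UMI, *Pax6* had 5.65 in Fev-Cre from 25 UMIs, and *Isl1* was at 0 in v1 E17.5 (next 4.78).

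In 4 further cases every library of one group moved one way and every library of the other the opposite way, and the difference was not tested. From Neurog3/Fev to Fev-early cells *Pax6* differed by a mean of -98.0 CPM in v1 and 191 CPM in v2 libraries. From Fev-early to Fev-late cells *Myt1* differed by 8.62 CPM in v1 and -11.8 CPM in v2. Delta minus Fev-late *Runx1t1* was -80.8 CPM at E14.5 and 38.8 CPM at E17.5, and delta minus beta *Rfx6* was -15.2 and 8.28 CPM.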

How the results depend on the processing

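Under alternatives other than leaving out a library, 143 counts of called members stayed within 1.5 times their value and 12 did not. The exceptions were these. With the pairing by library left out (no replicate block), 1 member was called between Neurog3/Fev cells and Neurog3-high cells without trunk genes, against 3, and 1 from Fev-late to alpha cells, against 0. No other count moved by over 1.5 times without the block. The latter comparison also gave 2 with *Neurog3* and *Fev* gates at 3 UMIs, 2 in cells thinned to 2000 UMIs and 3 in cells below 2 times the median total, and from Fev-late to beta cells both of these last settings gave 2 against 1. With the v2 kit only, alpha against beta cells gave 0 against 1 and delta against beta cells 2 against 4. Without the kit term both stage contrasts of Neurog3-high cells gave 0 against 1, and DESeq2 gave 1 against 0 for beta cells at E17.5 against E14.5.

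Without single libraries, the counts ran from 0 to 2 for Neurog3-high cells at E14.5 against E12.5 (0 without v2 E12.5) and from 0 to 6 at E17.5 against E14.5 (0 without v2 E14.5 or v2 E17.5, 6 without v1 E17.5). They ran from 0 to 1 for beta cells at E17.5 against E14.5 and for beta cells without against with *Fev* (1 without Fev-Cre), from 0 to 2 for alpha against Fev-late cells, and from 1 to 2 for alpha against beta and beta against Fev-late cells. Among single members, 3 differences changed sign, none of them called: *St18* in Neurog3-high cells at E14.5 against E12.5 ranged from -0.31 (without v2 E12.5) to 1.83, *Pax6* at E17.5 against E14.5 fell to -0.83 without v2 E17.5, and *Neurod2* in delta against beta cells ranged from -0.032 (without Fev-Cre) to 2.59. The cause of these changes was not tested. At an onset of 25% of the highest CPM, *Neurod1* came on in Neurog3-high cells in 7 of 8 libraries, and *Isl1* in Neurog3/Fev cells or before in 4. Members at a few UMIs per sum, such as *Neurod2* after the Neurog3/Fev class, are limited by depth.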

Other observations

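Some of the regulators were not restricted to the endocrine lineage. In the 7 libraries with 10 or more mesenchymal cells, *Isl1* stood at 35.8 to 158 CPM (median 77.5), and 6.28% to 27.3% of thinned cells had a UMI, against at most 3.61% of immune cells. *Runx1t1* stood at 34.6 to 206 CPM there (median 93.4), with a UMI in 9.57% to 44.9% of cells, against at most 5% of immune cells. In neural cells *Insm1* had 4.15 to 41.4 CPM (median 25.8), *Isl1* had 0 to 147 and *Runx1t1* 0 to 67.2. In acinar cells *Nkx2-2* had 13.0 to 79.2 CPM (median 35.4).

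PP cells, which make pancreatic polypeptide, reached 10 cells in 3 libraries. In v2 E14.5, v2 E17.5 and Fev-Cre they had 1056, 669 and 1653 CPM of *Isl1*, 517, 347 and 269 of *Neurod1*, 413, 532 and 566 of *Pax6*, 230, 197 and 176 of *Runx1t1* and 161, 155 and 92.9 of *Insm1*. Cells with more than 1 hormone, in 5 libraries, had 984 to 1610 CPM of *Isl1* and 203 to 315 of *Neurod1*. Barcodes that hold 2 cells were not called.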
